A study of Mus musculus with 12 samples.

Results

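The 10 genes described here carry glucose into the cell and through the first steps of glycolysis: the glucose transporters *Slc2a1* and *Slc2a3*, the hexokinases *Hk1* and *Hk2*, glucose-6-phosphate isomerase *Gpi1*, the phosphofructokinases *Pfkl*, *Pfkm* and *Pfkp*, and the bifunctional enzymes *Pfkfb3* and *Pfkfb4*. They were taken by gene symbol from a list that names the steps of the pathway, drawn up with earlier results of these data known, and are 10 of the 57180 genes in the tables. All 10 were among the 25446 genes with at least 10 estimated counts over the 12 libraries, and *Pfkfb4* was the one with a mean under 10 CPM (counts scaled to library size with TMM factors).

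Glucose enters most mammalian cells through facilitative transporters of the SLC2A family and is trapped by hexokinase as glucose 6-phosphate. Glucose-6-phosphate isomerase turns this into fructose 6-phosphate, and phosphofructokinase commits it to glycolysis by adding a further phosphate. The PFKFB enzymes make and break fructose 2,6-bisphosphate, a strong activator of phosphofructokinase. Naive embryonic stem cells (ESCs) use both glycolysis and mitochondrial respiration, and cells that leave the naive state toward the epiblast lean more on glycolysis.

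RNA was sequenced from an E14 mouse ESC line, 1 picked clone, whose *Tigre* locus holds a CRISPR interference repressor induced by doxycycline (DOX). Neg cells hold 4 scramble guides, whereas 3xKD cells hold guides against *Pcx* (pyruvate carboxylase), *Me1* and *Me2* (malic enzymes), and both were held under antibiotic selection and low oxygen. Each line was collected as ESCs in 2iLIF medium and as epiblast-like cells (EpiLCs, day 2) in medium with Activin A, Fgf2 and the inhibitor XAV939, giving 4 groups of 3 libraries. The labels leave DOX out, and the study's methods name culture with DMSO or DOX. A figure legend of the study gives DOX for both lines in both states. All 12 libraries, Neg included, were therefore taken as DOX-treated. The cell-type field gives ESCs for every Neg library and EpiLCs for every 3xKD library, so the groups rest on the titles. The study's methods describe its experiments in general as biological triplicates. The labels number the 3 libraries of a group but do not name separate cultures, and all cells come from 1 clone, so p-values measure the spread between these libraries.

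Library totals lay between 11221023 and 19652197 estimated counts. The 3 targeted genes were lower in 3xKD in both states, with log2 fold changes from −0.89 to −1.14, and for each of them every 3xKD library lay below every Neg library of its state. The summed level of 10 naive markers was 5639 to 5813 CPM in Neg ESCs and 4270 to 4339 CPM in 3xKD ESCs, against 499 to 518 CPM in Neg EpiLCs and 591 to 613 CPM in 3xKD EpiLCs. The summed level of 8 formative markers was 269 to 282 and 302 to 310 CPM in Neg and 3xKD ESCs, and 3091 to 3463 CPM in Neg EpiLCs against 1772 to 1837 CPM in 3xKD EpiLCs. Of the 10 naive genes, 0 were higher and 5 lower in 3xKD ESCs by the limits given below, and 4 higher and 1 lower in 3xKD EpiLCs. Of the 8 formative genes, 2 were higher and 2 lower in ESCs (median log2 fold change 0.12), and 0 higher and 6 lower in EpiLCs. The summed level of 6 2-cell-like markers was 346 to 422 CPM in the other groups and 764 to 822 CPM in 3xKD EpiLCs. Summed neuroectoderm markers (4 genes) were lower in 3xKD, at 37.1 to 37.7 CPM against 53.8 to 55.7 CPM in ESCs and at 39.6 to 42.8 CPM against 83.8 to 85.6 CPM in EpiLCs. By the limits given below, 1 of the 4 genes was lower in each state, so the sum does not stand for the whole set. Summed fibroblast markers (4 of 6 tested) were low but higher in 3xKD, at 7.86 to 8.56 CPM against 4.33 to 5.32 CPM in ESCs and at 5.68 to 7.20 CPM against 3.82 to 4.97 CPM in EpiLCs. Here too 1 of the 4 genes was higher by those limits in each state, and the median log2 fold change of the 4 in EpiLCs was −0.12. Primitive endoderm markers (6 genes) lay at 30.1 to 32.1 CPM in 3xKD against 21.1 to 24.2 CPM in Neg as ESCs, and at 23.5 to 25.3 CPM against 27.8 to 32.2 CPM as EpiLCs, whereas the lines overlapped in both states for 5 mesoderm markers (19.9 to 31.0 CPM). The part of these marker levels in the results was not tested. In such bulk samples, fewer cells of a type and less RNA per cell cannot be told apart.

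The start sites of 3 members that were higher in 3xKD are shown because the windows before them differ in the short motifs that HIF-1 and MYC family factors are known to bind. Each sequence is the 250 bases before the start of the most abundant transcript (GRCm39, GENCODE vM39), written 5′ to 3′ on the strand of the gene. Capitals mark GCGTG, the motif ACGTG or the palindrome CACGTG on either strand. The palindrome contains ACGTG on both strands. The windows are chr4:118965658-118965907 (plus strand) for *Slc2a1*, chr13:6698971-6699220 (minus strand) for *Pfkp* and chr7:33929781-33930030 (minus strand) for *Gpi1*.
Slc2a1: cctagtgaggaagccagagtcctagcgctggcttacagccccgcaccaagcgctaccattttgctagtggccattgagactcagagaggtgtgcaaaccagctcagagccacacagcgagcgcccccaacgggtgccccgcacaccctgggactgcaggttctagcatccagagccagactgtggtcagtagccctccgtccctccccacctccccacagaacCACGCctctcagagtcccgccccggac
Pfkp: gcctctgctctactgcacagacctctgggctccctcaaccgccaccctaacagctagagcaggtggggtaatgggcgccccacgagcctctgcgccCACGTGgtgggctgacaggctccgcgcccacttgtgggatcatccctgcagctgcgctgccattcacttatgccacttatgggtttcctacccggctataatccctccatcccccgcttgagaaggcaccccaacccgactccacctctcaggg
Gpi1: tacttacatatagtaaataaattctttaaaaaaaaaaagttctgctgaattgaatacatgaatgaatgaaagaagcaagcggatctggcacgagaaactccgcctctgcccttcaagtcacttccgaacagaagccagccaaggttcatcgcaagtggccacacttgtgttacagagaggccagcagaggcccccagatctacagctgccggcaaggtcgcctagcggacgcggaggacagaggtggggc

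The *Slc2a1* window holds GCGTG on the opposite strand, the *Pfkp* window holds CACGTG, and the *Gpi1* window holds none of the 3 motifs. Of the 10 members, 5 had ACGTG or GCGTG in this window (*Slc2a1*, *Hk2*, *Pfkm*, *Pfkp* and *Pfkfb3*), beside 41.8% of the 25386 genes with a window. CACGTG was in 2 members (*Pfkp* and *Pfkfb3*), beside 6.12% of all windows. A match is a description of these letters, not a binding site.

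The first comparison asked how the 3xKD line differs from the Neg line as ESCs. In ESCs, 6 of the 10 genes rose in 3xKD and none fell: both transporters, both hexokinases, *Gpi1* and *Pfkp*. Called genes had an adjusted p under 0.01 (edgeR's quasi-likelihood test, Benjamini-Hochberg over all genes tested) and an absolute log2 fold change above 0.58. By these limits 8.50% of all genes tested were higher and 6.76% lower, and of the 9634 genes that averaged 10 CPM or more, as 9 of the 10 members did, 9.51% were higher and 9.86% lower. No member was lower at an unadjusted p under 0.05 or with DESeq2 either (0 of 10 in both states). The median log2 fold change was 0.73 over the 10 genes and 0.03 over all genes. With no fold limit, *Pfkl* and *Pfkfb3* also passed, which made 8 of 10 higher, beside 15.6% of all genes and 27.3% of the 9634.

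The same comparison in EpiLCs gave 4 genes that rose in 3xKD and none that fell: *Slc2a3*, *Hk1*, *Gpi1* and *Pfkp*. Over all genes tested, 7.88% were higher and 5.35% lower, against 9.20% and 8.90% of the 9634 more abundant genes. The median log2 fold change was 0.56 over the 10 genes and 0.03 over all genes. *Slc2a1* (0.55) and *Pfkm* (0.57) lay just inside the fold limit, and without that limit 9 of 10 genes were higher, beside 14.3% of all genes and 25.1% of the 9634. *Pfkfb4* was the gene that did not pass.

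**Figure D1:**
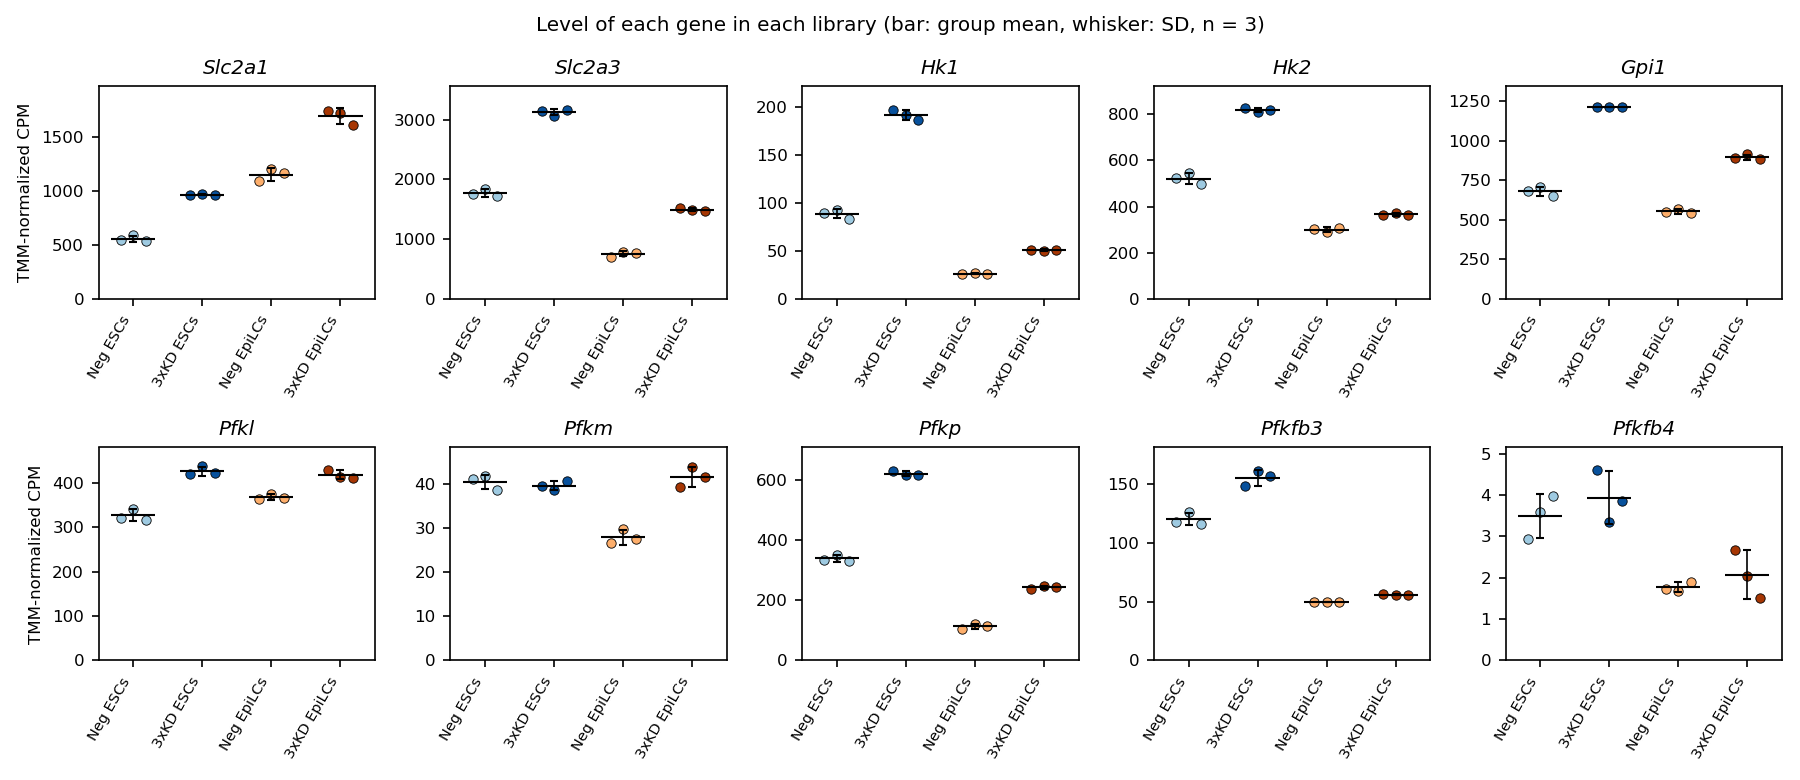
TMM-normalized CPM of each gene in each of the 12 libraries, 1 panel per gene with its own axis from 0; points are libraries, lines are group means and whiskers are SD (n = 3). *Slc2a3* stood highest in 3xKD ESCs (3071 to 3160 CPM), whereas *Slc2a1* stood highest in 3xKD EpiLCs (1603 to 1740 CPM).

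**Figure D2:**
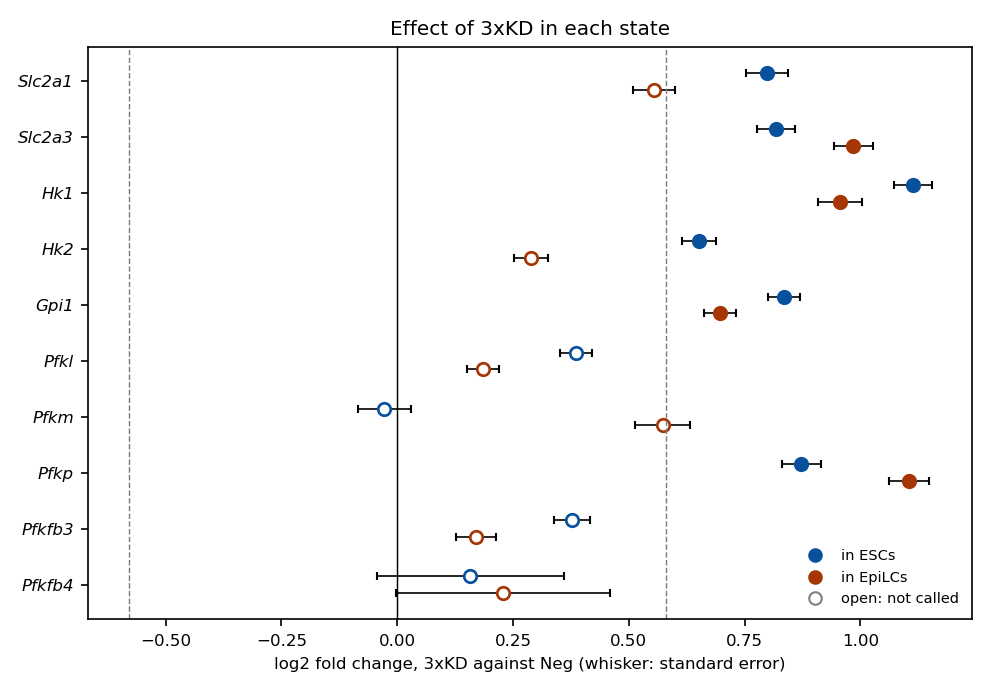
Log2 fold change of 3xKD against Neg for each gene in ESCs and in EpiLCs, with standard errors as whiskers; filled points are called and dashed lines mark the fold limit of 0.58. 6 genes are called in ESCs and 4 in EpiLCs, and *Pfkm* is near 0 in ESCs (−0.03) and at 0.57 in EpiLCs.

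The change from ESCs to EpiLCs ran the other way for most of these genes. In the Neg line *Slc2a1* rose and 6 genes fell: *Slc2a3*, *Hk1*, *Hk2*, *Pfkp*, *Pfkfb3* and *Pfkfb4*. Over all genes tested, 9.78% were called higher and 11.0% lower in Neg EpiLCs than in Neg ESCs, against 10.9% and 14.6% of the 9634. The median log2 fold change was −0.90 over the 10 genes and 0.01 over all genes. In the 3xKD line the same 7 genes were called in the same directions, beside 9.42% of all genes called higher and 9.32% lower (9.93% and 12.2% of the 9634), with a median of −0.99 over the 10 genes. These comparisons share libraries with the 2 above, so the 4 sets of values are not independent of each other.

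**Figure D3:**
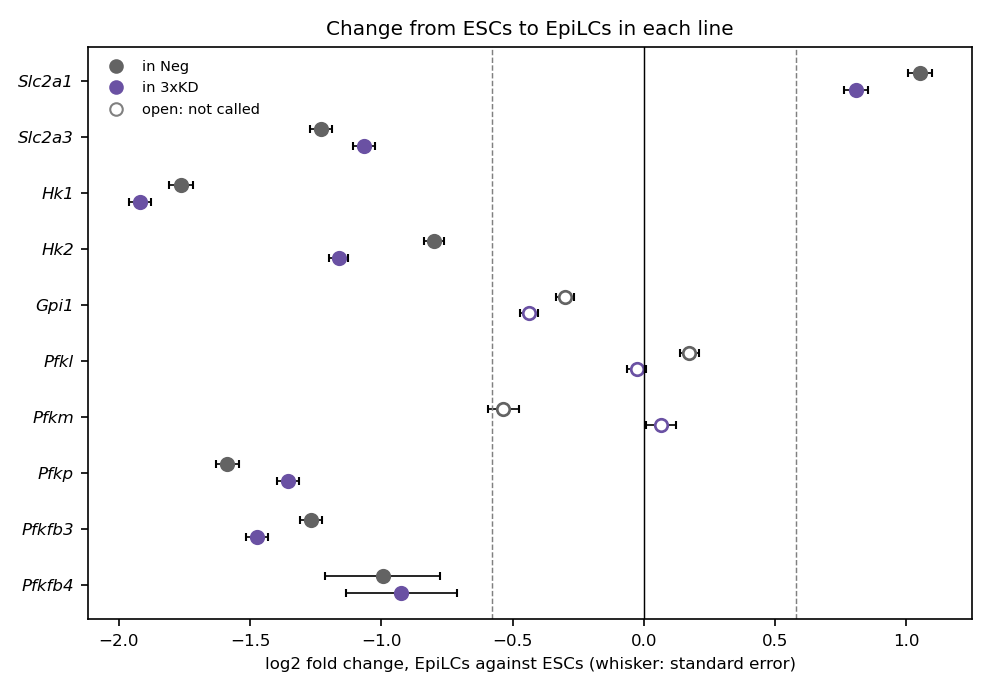
Log2 fold change of EpiLCs against ESCs for each gene in the Neg line and in the 3xKD line, with standard errors as whiskers; filled points are called and dashed lines mark the fold limit. *Slc2a1* is the one gene called higher (1.05 in Neg and 0.81 in 3xKD), and *Hk1* has the lowest values (−1.76 and −1.92).

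Whether the 3xKD effect differed between the states was tested directly, as the effect in EpiLCs minus that in ESCs, with an adjusted p under 0.01 and no fold limit. *Pfkm* was the 1 gene with a larger effect in EpiLCs, beside 4.76% of all genes and 10.2% of the 9634. *Hk2* and *Pfkl* had smaller ones, beside 5.27% and 12.2%. For the other 7 genes the test of the difference missed the threshold, which does not show that the effects were alike. The values follow with each gene.

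*Slc2a1* encodes GLUT1, the transporter that serves basal glucose uptake in many cells. It lies on chr4:118965908-118996365 (GRCm39, plus strand). Its level was 545, 586 and 531 CPM in Neg ESCs and 956, 973 and 963 CPM in 3xKD ESCs. It was 1086, 1199 and 1161 CPM in Neg EpiLCs and 1740, 1717 and 1603 CPM in 3xKD EpiLCs. No 2 groups overlapped, and both the passage to EpiLCs and 3xKD went with higher levels. The log2 fold change of 3xKD against Neg was 0.80 in ESCs (standard error 0.045, adjusted p = 5.9e-10) and 0.55 in EpiLCs (standard error 0.045, adjusted p = 4e-08), the latter under the fold limit. In EpiLCs the gene passed the limit when Neg EpiLCs replicate 2 (0.59) or 3xKD EpiLCs replicate 3 (0.59) was left out. So it did with library size alone (0.61) and without the filter (0.59). The difference between the states was −0.24 (adjusted p = 0.013), and it passed when Neg ESCs replicate 2 (adjusted p = 0.0049) or Neg EpiLCs replicate 1 (adjusted p = 0.0015) was left out. It also passed with DESeq2 (adjusted p = 0.00055), without the filter (0.0012), with robust estimation (0.001), with the replicate block (0.0093) and with protein-coding transcripts alone (−0.34, adjusted p = 0.005).

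*Slc2a3* encodes GLUT3, a transporter with high affinity for glucose that is abundant in neurons and in the early embryo. It lies on chr6:122704768-122778599 (minus strand). Its level was 1759, 1848 and 1715 CPM in Neg ESCs and 3153, 3071 and 3160 CPM in 3xKD ESCs. It was 706, 792 and 769 CPM in Neg EpiLCs and 1516, 1495 and 1475 CPM in 3xKD EpiLCs. Neg EpiLCs were lowest, 3xKD ESCs were highest, and no groups overlapped. The 3xKD effect was 0.82 in ESCs (standard error 0.042, adjusted p = 1.8e-10) and 0.98 in EpiLCs (standard error 0.042, adjusted p = 3.1e-11). The fall from ESCs to EpiLCs was −1.23 in Neg and −1.06 in 3xKD. The difference of the 3xKD effect between the states missed the threshold with each of the 12 libraries left out (0.09 to 0.19). It passed with DESeq2 (0.18, adjusted p = 0.0043) and without the filter (0.19, adjusted p = 0.0067).

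The balance of the 2 transporters therefore turned over between the states, which can be read per length from TPM (transcript abundance scaled for length and library total). *Slc2a1* made up 30.7% ± 2.0 (SD, n = 3) of the summed TPM of *Slc2a1* and *Slc2a3* in Neg ESCs and 67.3% ± 1.0 in Neg EpiLCs. In 3xKD its share was 30.5% ± 1.1 in ESCs and 60.4% ± 0.91 in EpiLCs. The 2 lines overlapped as ESCs (29.4% to 33.0% and 29.4% to 31.7%) and did not overlap as EpiLCs (66.2% to 68.2% in Neg and 59.7% to 61.4% in 3xKD). An exact two-sided permutation test of 3 against 3 libraries cannot go below p = 0.1, so these shares are a description. They count all annotated transcripts, and in Neg ESCs protein-coding ones held 65.2% of the TPM of *Slc2a1* and 85.9% of that of *Slc2a3*.

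**Figure D4:**
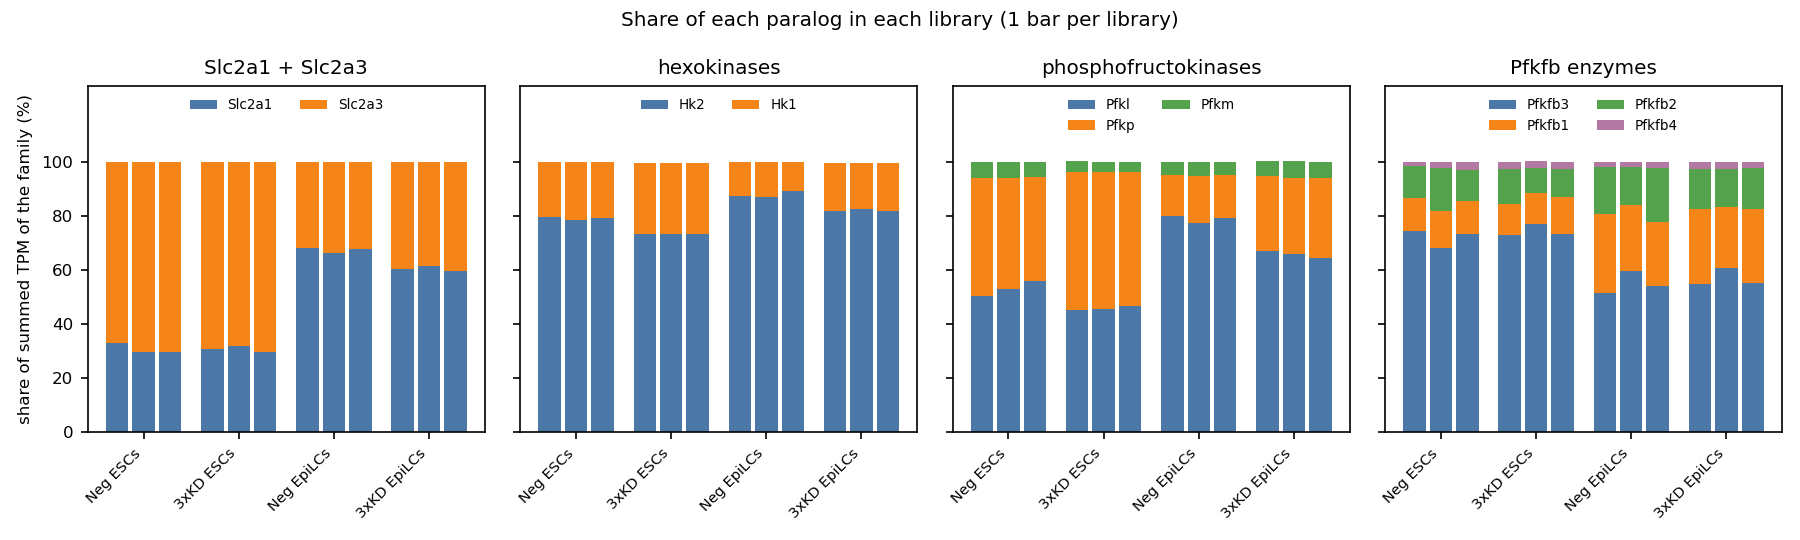
Share of each paralog in the summed TPM of its family, 1 bar per library (hexokinases are out of 5 genes, of which *Hk1* and *Hk2* are drawn). *Slc2a1* and *Pfkl* take larger shares in EpiLCs than in ESCs, and *Hk1* and *Pfkp* take larger shares in 3xKD than in Neg in both states.

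*Hk1* encodes hexokinase 1, which binds to mitochondria and is expressed widely. It lies on chr10:62104621-62215687 (minus strand). Its level was 89.7, 93.0 and 83.7 CPM in Neg ESCs and 197, 192 and 187 CPM in 3xKD ESCs. It was 25.8, 26.8 and 25.8 CPM in Neg EpiLCs and 51.3, 49.8 and 51.1 CPM in 3xKD EpiLCs. The 4 groups were apart from each other, and the difference of the 3xKD effect between the states missed the threshold (−0.16, adjusted p = 0.1). The log2 effect of 3xKD was 1.11 in ESCs (standard error 0.041, adjusted p = 4.7e-12), or 2.16-fold, and 0.96 in EpiLCs (standard error 0.047, adjusted p = 1.4e-10), or 1.94-fold. The fall from ESCs to EpiLCs was −1.76 in Neg and −1.92 in 3xKD.

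*Hk2* encodes hexokinase 2, a form that is induced in many growing cells. It lies on chr6:82699740-82751469 (minus strand). Its level was 524, 544 and 496 CPM in Neg ESCs and 827, 811 and 819 CPM in 3xKD ESCs. It was 302, 288 and 308 CPM in Neg EpiLCs and 363, 373 and 362 CPM in 3xKD EpiLCs. The lines were apart in both states, but the gap was narrower in EpiLCs. Between the lines the log2 fold change was 0.65 in ESCs (standard error 0.037, adjusted p = 5.5e-10) and 0.29 in EpiLCs (standard error 0.037, adjusted p = 8.2e-06), the latter under the fold limit. The difference of −0.36 between them passed the test (standard error 0.052, adjusted p = 0.00011) with each of the 12 libraries left out.

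*Hk2* was the main hexokinase transcript in every library, and *Hk1* gained share in 3xKD. *Hk1* made up 20.7% ± 0.49 of the summed TPM of 5 hexokinase genes in Neg ESCs and 26.2% ± 0.096 in 3xKD ESCs. In EpiLCs its share was 12.1% ± 1.1 in Neg and 17.5% ± 0.41 in 3xKD. The lines did not overlap in either state.

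*Gpi1* has 11 annotated transcripts and lies on chr7:33900755-33929780 (minus strand), with no other gene annotated over it. Its level was 683, 706 and 653 CPM in Neg ESCs and 1214 CPM in each of the 3xKD ESCs libraries. It was 551, 568 and 541 CPM in Neg EpiLCs and 889, 916 and 886 CPM in 3xKD EpiLCs. The groups did not overlap. The 3xKD effect was 0.83 in ESCs (standard error 0.034, adjusted p = 1.8e-11) and 0.70 in EpiLCs (standard error 0.034, adjusted p = 1.4e-10). The state changes of −0.30 in Neg and −0.44 in 3xKD were under the fold limit, with adjusted p = 1.4e-06 and 1.6e-08. The difference of the 3xKD effect between the states missed the threshold with each of the 12 libraries left out (−0.17 to −0.11).

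The transcripts behind the *Gpi1* value were not the same in the 4 groups. The estimated counts of its protein-coding transcripts came to 506, 509 and 466 CPM in Neg ESCs and 805, 803 and 799 CPM in 3xKD ESCs, but to 352, 345 and 356 CPM in Neg EpiLCs and 401, 412 and 388 CPM in 3xKD EpiLCs. Those of its retained-intron transcripts came to 35.4, 41.9 and 43.0 CPM in Neg ESCs and 162, 167 and 151 CPM in 3xKD ESCs. In EpiLCs they came to 84.3, 112 and 83.8 CPM in Neg and 310, 349 and 346 CPM in 3xKD. The retained-intron class thus held 5.90% ± 0.70 of the gene's estimated counts in Neg ESCs, 13.2% ± 0.65 in 3xKD ESCs, 16.8% ± 2.5 in Neg EpiLCs and 37.3% ± 2.2 in 3xKD EpiLCs, with no overlap between the lines in either state. Over all genes that class held 3.41% to 3.71% of counts in Neg and 4.10% to 4.20% in 3xKD libraries, so it was higher in 3xKD there as well, by a smaller factor.

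When each gene with a protein-coding transcript was counted by those transcripts alone, an alternative added after these shares were seen, the *Gpi1* effect of 3xKD was 0.75 in ESCs (adjusted p = 1.3e-09) and 0.21 in EpiLCs (adjusted p = 0.00025). The call in EpiLCs was lost by its size, the difference between the states became −0.54 (adjusted p = 4.9e-06), and the fall from ESCs to EpiLCs in 3xKD became −0.99. The 2 of its 4 retained-intron transcripts with the largest shares (chr7:33901584-33909802 and chr7:33914634-33929688) both run into intron 9 of the 17 introns of the main transcript (chr7:33907736-33915380, 7645 bases), the former over its last 2067 bases and the latter over its first 747. The junctions of that intron are shown with 10 exon and 20 intron bases each, and capitals mark its first and last 2 bases (chr7:33915361-33915390 and chr7:33907726-33907755, minus strand).
Gpi1 intron 9, 5′ junction: gttctgggatGTaagtacgggcaccttgtg
Gpi1 intron 9, 3′ junction: gccctttccttctctcctAGtgggtaggtg
The split of reads among transcripts is the authors' estimate, and reads over the junctions were not counted here.

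**Figure D5:**
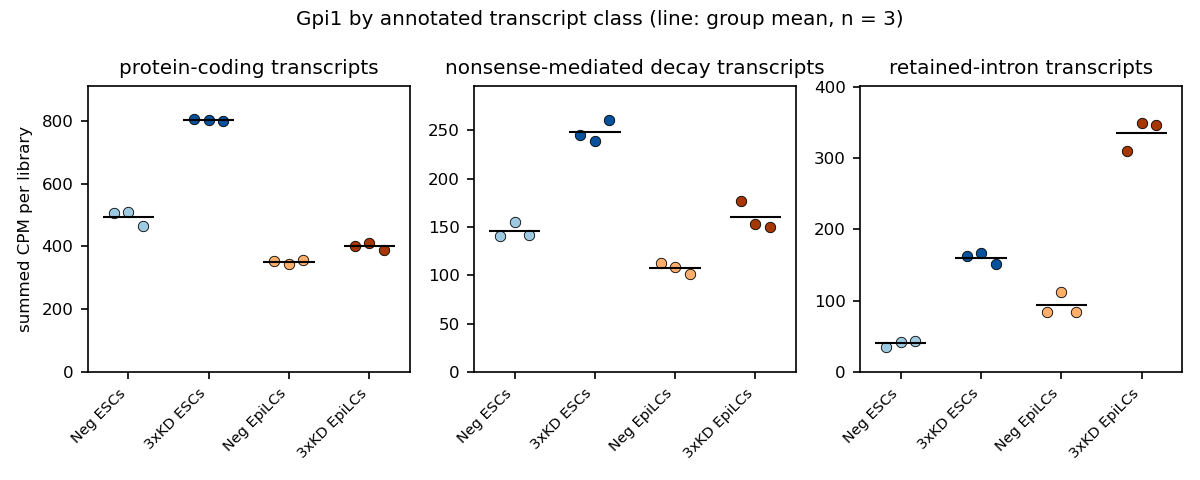
Summed CPM of the *Gpi1* transcripts of each annotated class in each library, with group means as lines (n = 3). In EpiLCs the protein-coding class lay at 345 to 356 CPM in Neg and 388 to 412 CPM in 3xKD, and the retained-intron class at 83.8 to 112 CPM and 310 to 349 CPM.

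*Pfkl* encodes the liver-type phosphofructokinase subunit and was the most even member across the groups. It lies on chr10:77818084-77845922 (minus strand). Its level ranged from 317 to 342 CPM in Neg ESCs, 419 to 438 CPM in 3xKD ESCs, 364 to 375 CPM in Neg EpiLCs and 412 to 430 CPM in 3xKD EpiLCs. The log2 effect of 3xKD was 0.39 in ESCs (adjusted p = 1.5e-07) and 0.19 in EpiLCs (adjusted p = 0.00041), both under the fold limit. The difference of −0.20 between them was at the edge of the test (standard error 0.050, adjusted p = 0.0098). It missed the threshold without Neg ESCs replicate 1 (adjusted p = 0.025) or 3 (0.033), 3xKD ESCs replicate 2 (0.032) or 3 (0.018), Neg EpiLCs replicate 3 (0.019) or 3xKD EpiLCs replicate 2 (0.027). It also missed it with RLE factors (adjusted p = 0.012), transcript-length offsets (0.064), no filter (0.019), the replicate block (0.01 after rounding), protein-coding transcripts alone (0.012) and library size alone, where the value was −0.13 (adjusted p = 0.19).

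*Pfkm*, the muscle-type subunit, had the lowest level of the 3 and a pattern of its own. It lies on chr15:97990451-98031417 (plus strand). Its level was 41.0, 41.7 and 38.6 CPM in Neg ESCs and 39.5, 38.7 and 40.6 CPM in 3xKD ESCs. It was 26.5, 29.7 and 27.4 CPM in Neg EpiLCs and 39.2, 43.8 and 41.5 CPM in 3xKD EpiLCs. The lines overlapped as ESCs, Neg EpiLCs were lowest, and 3xKD EpiLCs lay with the ESCs. Between the lines the log2 fold change was −0.03 in ESCs (adjusted p = 0.75, 95% interval −0.14 to 0.08) and 0.57 in EpiLCs (standard error 0.059, adjusted p = 6.3e-07). The difference of 0.60 passed the test (standard error 0.082, adjusted p = 7e-05) with each of the 12 libraries left out. In EpiLCs the effect went past the fold limit without Neg EpiLCs replicate 2 (0.63) or 3xKD EpiLCs replicate 1 (0.61). It also did so with DESeq2 (0.581), RLE factors (0.581), upper-quartile factors (0.585) and library size alone (0.63). The same held without the filter (0.61), with filterByExpr (0.586) and with protein-coding transcripts alone (0.592).

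*Pfkp*, the platelet-type subunit, changed most of the 3. It lies on chr13:6629798-6698970 (minus strand). Its level was 334, 353 and 333 CPM in Neg ESCs and 631, 619 and 618 CPM in 3xKD ESCs. It was 105, 121 and 114 CPM in Neg EpiLCs and 238, 248 and 245 CPM in 3xKD EpiLCs. No groups overlapped, and 3xKD EpiLCs lay between the 2 Neg groups. The 3xKD effect was 0.87 in ESCs (standard error 0.042, adjusted p = 9e-11) and 1.11 in EpiLCs (standard error 0.044, adjusted p = 1.4e-11), or 2.15-fold. The difference of 0.23 missed the threshold (adjusted p = 0.012) and passed it without Neg EpiLCs replicate 2 (adjusted p = 0.0032). It also passed with DESeq2 (adjusted p = 0.0003), RLE factors (0.0094), library size alone (0.31, adjusted p = 0.005), no filter (0.00015), filterByExpr (0.0067), robust estimation (0.0011) and the replicate block (0.01 after rounding). The difference missed the threshold with upper-quartile factors, with transcript-length offsets and with protein-coding transcripts alone (0.16, adjusted p = 0.15).

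The makeup of phosphofructokinase transcripts moved with both the state and the line. *Pfkp* made up 41.1% ± 2.3 of the summed TPM of the 3 genes in Neg ESCs, 50.5% ± 0.86 in 3xKD ESCs, 16.2% ± 1.0 in Neg EpiLCs and 28.4% ± 1.0 in 3xKD EpiLCs. *Pfkl* filled most of the rest, with 53.0% ± 2.7, 45.7% ± 0.79, 78.8% ± 1.3 and 65.7% ± 1.3. The TPM of *Pfkl* was 1.29 times that of *Pfkp* in Neg ESCs, 0.905 times in 3xKD ESCs, 4.87 times in Neg EpiLCs and 2.31 times in 3xKD EpiLCs. *Pfkm* stayed between 3.8% and 6.2% in every library. All annotated transcripts are counted here, and in Neg ESCs protein-coding ones held 62.1% of the TPM of *Pfkl* and 77.6% of that of *Pfkp*.

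*Pfkfb3* encodes the bifunctional enzyme with the strongest bias toward making fructose 2,6-bisphosphate. It lies on chr2:11476244-11558888 (minus strand). Its level was 118, 126 and 116 CPM in Neg ESCs and 148, 161 and 157 CPM in 3xKD ESCs, and it lay between 49.6 and 49.8 CPM in Neg EpiLCs and between 55.6 and 56.6 CPM in 3xKD EpiLCs. The state set the level more than the line did, with changes from ESCs to EpiLCs of −1.27 in Neg and −1.47 in 3xKD. The log2 effect of 3xKD was 0.38 in ESCs (adjusted p = 6.8e-07) and 0.17 in EpiLCs (adjusted p = 0.0044), both under the fold limit. The difference of −0.21 missed the threshold (adjusted p = 0.022) and passed it without Neg ESCs replicate 2 (adjusted p = 0.0084) or 3xKD ESCs replicate 1 (adjusted p = 0.004).

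*Pfkfb4* encodes a related enzyme and was scarcely expressed, with 24 to 78 estimated counts per library. It lies on chr9:108820832-108862847 (plus strand). Its level ranged from 2.93 to 3.98 CPM in Neg ESCs, 3.35 to 4.61 CPM in 3xKD ESCs, 1.68 to 1.90 CPM in Neg EpiLCs and 1.5 to 2.67 CPM in 3xKD EpiLCs. A 3xKD effect was not detectable at this depth (0.16 with a standard error of 0.20 in ESCs and 0.23 with a standard error of 0.23 in EpiLCs). Its difference between the states missed the threshold with each of the 12 libraries left out (−0.15 to 0.23). The fall from ESCs to EpiLCs was −0.99 in Neg (adjusted p = 0.0012) and −0.92 in 3xKD (adjusted p = 0.0018). The latter missed the threshold without 3xKD ESCs replicate 1 (−0.78, adjusted p = 0.013) or 3xKD EpiLCs replicate 3 (−0.73, adjusted p = 0.013), and both missed it with protein-coding transcripts alone (adjusted p = 0.32 and 0.21).

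Ordered by TPM, which allows for transcript length, *Slc2a3* (396 ± 95), *Gpi1* (268 ± 57) and *Slc2a1* (174 ± 32) led in Neg ESCs, and *Slc2a1* (427 ± 51), *Gpi1* (255 ± 19) and *Slc2a3* (208 ± 32) led in Neg EpiLCs. *Pfkl*, *Pfkp* and *Hk2* followed in Neg ESCs at 88.2, 68.4 and 65.3 TPM, with ranges that overlapped between neighbors although the order was the same in each of the 3 libraries. In Neg EpiLCs all neighbors in the order had separate ranges. *Pfkp* ranked above *Pfkl* in 3xKD ESCs (114 and 103 TPM) with overlapping ranges, and in 3xKD EpiLCs *Gpi1* and *Slc2a3* (372 and 370 TPM) and *Hk1* and *Pfkm* (10.5 and 10.4 TPM) changed places between libraries. *Pfkfb4* was last in every group, with means from 0.466 to 1.00 TPM. These values sum all annotated transcripts of a gene. In Neg ESCs protein-coding transcripts held 43.9% of the TPM of *Gpi1*, 65.2% of *Slc2a1* and 85.9% of *Slc2a3*. They held 62.1% of the TPM of *Pfkl*, 77.6% of *Pfkp* and 98.2% of *Hk2*. In 3xKD EpiLCs they held 27.2% of the TPM of *Gpi1*, 64.0% of *Slc2a1* and 83.3% of *Slc2a3*. The order is therefore not one of coding transcripts.

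The other genes of the pathway were counted by list. Of 11 other glucose and hexose transporters, 2 were called higher in 3xKD in each state and none lower. *Slc2a8*, an intracellular transporter, went from 10.1 to 21.6 CPM in ESCs and from 7.97 to 16.7 CPM in EpiLCs (group means), and *Slc2a4*, the insulin-responsive transporter, from 1.17 to 3.67 CPM and from 1.98 to 3.54 CPM. Of 3 inhibitors of uptake or of hexokinase, *Txnip* and *Arrdc4*, arrestins that restrain glucose uptake, were both called higher in 3xKD in both states. *Txnip* had log2 fold changes of 1.47 (ESCs) and 1.1 (EpiLCs), with standard errors of 0.049 and 0.048. For *Arrdc4* they were 0.61 and 0.83, with 0.038 and 0.036. By the direct test the *Txnip* effect was smaller in EpiLCs (−0.37) and that of *Arrdc4* larger (0.23). Both genes were called higher as EpiLCs too, within each line.

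Lower glycolysis, the steps from aldolase to lactate dehydrogenase, had 13 of 14 genes tested, of which 10 were called higher in 3xKD ESCs and 5 in 3xKD EpiLCs, with none lower. *Pgam2* (2.28) and *Eno2* (2.13) had the largest log2 fold changes in ESCs, and *Aldoc* (2.09) and *Eno2* (1.57) in EpiLCs. Between the lines the log2 fold change was smaller in EpiLCs for 8 of the 13 by the direct test and larger for 0. Over all genes tested 5.27% were smaller, and 12.2% of the 9634. Of the 10 upper glycolysis genes 2 were smaller and 1 larger, and 4 and 2 at an adjusted p under 0.05. A difference between the lists was not tested. Median log2 fold changes were 0.68 in ESCs and 0.32 in EpiLCs for these 13 genes.

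Of 10 genes of side routes that branch off upper glycolysis, 5 were called higher in 3xKD ESCs and 4 in 3xKD EpiLCs, with none lower. *Gbe1*, the glycogen branching enzyme (1.28), and *Pgm1*, a phosphoglucomutase (1.27), had the largest values in ESCs, and *Gfpt2*, which opens the hexosamine route (0.90), and *Gys1*, glycogen synthase (0.80), in EpiLCs. Of 5 opposing enzymes tested, 1 was called higher in ESCs and 2 in EpiLCs. *G6pc3*, a glucose-6-phosphatase, was higher by 0.94 and 1.07 (standard errors 0.096 and 0.105), and *Slc37a4*, the glucose 6-phosphate translocator, by 0.64 in EpiLCs. Of 3 other regulators of fructose 2,6-bisphosphate (*Pfkfb1*, *Pfkfb2* and *Tigar*), 0 were called between the lines in either state by edgeR. With no fold limit, 1 of the 3 was lower and 0 were higher in ESCs at an adjusted p under 0.01. At an unadjusted p under 0.05, 1 of the 3 was lower in each state. At that unadjusted limit 1 opposing enzyme was lower in each state and 1 of the 10 side-branch genes in EpiLCs. At an adjusted p under 0.01 with no fold limit, 7 side-branch genes were higher and 1 lower in EpiLCs. DESeq2 called 0 genes of these lists lower.

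Of 12 HIF-1 and MYC regulators, 4 were called higher and 3 lower in 3xKD ESCs, and 1 higher and 2 lower in 3xKD EpiLCs. Over all genes tested 8.50% were higher and 6.76% lower in ESCs, and 7.88% and 5.35% in EpiLCs. The median log2 fold change of the 12 was 0.43 in ESCs and 0.05 in EpiLCs. *Mycn* fell by 1.05 in ESCs and 1.81 in EpiLCs (standard error 0.049 in each). *Myc* fell by 2.10 in ESCs (standard error 0.21), where its mean was 4.31 CPM in Neg and 1.04 CPM in 3xKD, and its change from ESCs to EpiLCs was called in Neg (3.61) and in 3xKD (5.99). *Epas1*, which encodes HIF-2α, rose from ESCs to EpiLCs by 1.86 in Neg, and *Egln1*, a prolyl hydroxylase that marks HIF-1α for decay, fell by 1.37 in 3xKD.

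By the smallest root mean square difference of centered log2 CPM over the 12 libraries, searched over the 9634 more abundant genes, the genes most like each member were named. *S1pr2* (0.08) was nearest to *Slc2a1*, *Tagln2* (0.08) to *Slc2a3*, *Fxyd6* (0.09) to *Hk1*, *Tpm4* (0.07) to *Hk2*, *Rhbdf2* (0.06) to *Gpi1*, *Glg1* (0.03) to *Pfkl*, *Lrp11* (0.06) to *Pfkm*, *Mn1* (0.11) to *Pfkp* and *Gsr* (0.09) to *Pfkfb3*. No member was among the 2 nearest genes of another member. *Pfkfb4* was below the level needed for this comparison.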

How the data were processed

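Single-end reads from ribosomal RNA-depleted, directional libraries (the molecule field of the labels says polyadenylated RNA) were trimmed by the authors with Trim Galore 0.6.7, mapped to GRCm39 with STAR 2.7.9a and quantified with Salmon 1.10.1. The deposited tables give estimated counts per transcript, not normalized, and TPM, scaled by the authors' quantifier for effective length and total. Here the sums per gene, as whole numbers, were normalized by TMM and fitted for all 12 libraries and 4 groups with edgeR 4.0.16 (quasi-likelihood, R 4.3.3, no block). The standard error is the absolute log2 fold change over the square root of F. No replicates were as close as sampling alone would give (chi-square over degrees of freedom 2.99 to 18.4). Transcript classes came from GENCODE vM39, which held all 105 transcripts of the 10 genes. All 10 genes are described. From each pathway list, at most the 2 called genes with the largest changes per comparison were named, and for each member the 2 nearest genes were sought. The list of other hexokinases is not reported here. Members and lists were chosen with earlier results of these data known. Annotated opposite-strand genes overlap 8 members, and whether quantification used strand is not given in the sources used here. The fitting script was tested on simulated data.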

Additional observations from a re-analysis of the deposited data

Results flagged for a closer look

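The 3xKD effect differed between EpiLCs and ESCs by the direct test for 3 of the 10 genes, 1 larger and 2 smaller in EpiLCs. Over all genes tested 4.76% were larger and 5.27% smaller. Of the 9634 more abundant genes 10.2% were larger and 12.2% smaller, so the counts of members lie near these shares. The difference, effect in EpiLCs minus effect in ESCs on the log2 scale, was 0.60 for *Pfkm*, −0.36 for *Hk2* and −0.20 for *Pfkl*. *Pfkm* and *Hk2* passed with each library left out, and *Pfkl* passed in 6 of 12 such fits. The *Pfkl* difference also missed the threshold with RLE factors, transcript-length offsets, no filter, the replicate block, protein-coding transcripts alone and library size alone (−0.13, adjusted p = 0.19 by edgeR). Summed naive and formative marker levels also differed between the lines within each state, and their part in these differences was not tested.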

How the results depend on the processing

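The count of called members in ESCs was 6 in each fit that leaves out 1 library and 8 with no fold limit. With no fold limit the count in EpiLCs was 9 at an adjusted p under 0.01 and 9 at 0.05, and it was 4 to 6 with 1 library left out. With the fold limit it was 5 with DESeq2, RLE factors, upper-quartile factors and filterByExpr, beside 4 as reported. It was 6 with library size alone and without the filter, and 4 with protein-coding transcripts alone, where *Pfkm* replaced *Gpi1*. Between the states the counts with 1 library left out were 7 to 7 in Neg and 6 to 7 in 3xKD. The count for the difference of effects was 6 at an adjusted p under 0.05, 6 with DESeq2 1.42.0, 5 without the filter, 5 with robust estimation, and 2 to 5 with 1 library left out (5 without Neg ESCs replicate 2), beside 3 as reported. Directions turned for 4 values, none of which was called. *Pfkm* in ESCs was 0.0202 with protein-coding transcripts alone, and with 1 library left out it ranged from −0.0639 to 0.0034, being above 0 at 0.0034, 0.0025, 0.0017 and 0.0017 without 3xKD ESCs replicate 1, without replicates 1 or 2 of Neg EpiLCs and without 3xKD EpiLCs replicate 3. *Pfkl* between states in 3xKD was 0.0018 with DESeq2, 0.0018 with RLE factors, 0.0452 with upper-quartile factors, 0.0091 with library size alone and 0.0056 with transcript-length offsets. *Pfkfb4* was −0.21 in EpiLCs and −0.23 for the difference with protein-coding transcripts alone, and with 1 library left out the difference ranged from −0.1539 to 0.2279, with −0.0384, −0.033 and −0.1539 without Neg ESCs replicate 3, 3xKD ESCs replicate 2 or 3xKD EpiLCs replicate 1. The cause was not tested. Same-numbered libraries correlated by −0.135 to 0.0999 in their deviations from group means, so the numbers were not taken to pair samples. With the replicate block the called members were 6, 4, 7 and 7 in the 4 comparisons and 4 for the difference, where *Pfkl* was lost and *Pfkp* and *Slc2a1* were gained. Of all genes, 2553 were called for the difference, but 731 with transcript-length offsets, and library size alone changed its split from 1211 larger and 1342 smaller effects to 1522 and 824. With no fold limit the calls over all genes at an adjusted p under 0.01 were 8048 in ESCs (3885 with the limit) and 7610 in EpiLCs (3367 with it), and 9081 and 8602 between the states in Neg and 3xKD (5292 and 4768 with it).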
